A study of Rattus norvegicus with 20 samples.

Results

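The transcripts described here encode 7 components of the extracellular matrix: the fibrillar collagen chains Col1a1 (ENSRNOG00000003897), Col1a2 (ENSRNOG00000011292) and Col3a1 (ENSRNOG00000003357), the basement membrane collagen chain Col4a1 (ENSRNOG00000016281), and the matrix proteins Sparc (ENSRNOG00000012840), Fn1 (ENSRNOG00000014288) and Dcn (ENSRNOG00000004554). They were chosen by name and Ensembl identifier from the 32883 genes of the deposited count table, and all 7 passed the filter on low counts with which 13806 genes were tested. RNA was sequenced from the gastrocnemius, a calf muscle, and from white adipose tissue of the abdomen of 10 Fischer 344 x Brown Norway rats, at 8 months of age per the labels. Each tissue gave 10 libraries, and libraries with the same number came from the same animal. The labels name no treatment beside 2 weeks of acclimation to a reversed light cycle, and both tissues were taken under isoflurane and frozen. Whole pieces of tissue were used, so each library mixes the cell types of its tissue, and the adipose depot is described no further than abdominal. Every sample label says male, while the design text speaks of 5 males and 5 females, so no comparison by sex was made.

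Fibrillar collagens assemble into the cable-like fibres that carry tension in connective tissue. Type I collagen is built from the chains of Col1a1 and Col1a2, type III from that of Col3a1, and fibroblasts and their progenitors are the main producers of both. Type IV collagen, to which Col4a1 contributes, forms instead the sheet-like network of the basement membrane that wraps each muscle fibre, adipocyte and capillary. Sparc binds collagen and acts in the assembly of basement membranes and fibres, Fn1 encodes fibronectin, an early scaffold on which other matrix is laid down, and Dcn encodes decorin, a small leucine-rich proteoglycan that binds collagen fibrils and regulates their width.

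Muscle libraries held 8446753 to 20141854 counts in total, and adipose libraries 11067755 to 25904309. Levels are given as CPM, counts divided by the size of the library and brought to a common round number, with library sizes scaled by trimmed-mean (TMM) factors. These were 0.559 to 0.747 for muscle libraries and 1.21 to 1.98 for adipose libraries. Because these factors differ so much, differences between the tissues are also given with library totals alone. The values hold no transcript lengths, so levels are compared between libraries and not between genes. Genes with a median of at least 20 CPM in 1 tissue and at least 100 times the median of the other were used to follow RNA of the other tissue: 168 genes for muscle and 154 for adipose tissue. For this choice, and for the levels of these genes, CPM came from library totals without TMM factors. This choice holds their level in the other tissue low in advance. The levels therefore compare libraries of a tissue and do not size the RNA of the other tissue. The muscle genes stood at 1.41% and 1.59% of their muscle level in adipose libraries 1 and 3, at 0.457% in library 5, and at 0.0287% to 0.163% in the remaining adipose libraries. The adipose genes stood at 0.532% of their adipose level in muscle library 2 and at 0.208% to 0.393% in the remaining muscle libraries. Identifiers other than those of the 7 genes are not paired with names here, so markers of muscle fibres, adipocytes, endothelium, leukocytes or tendon and the further genes of the matrix pathway were not analysed.

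RefSeq promoter windows (300 bases, build GRCr8) were matched for 3 of the 7 genes: Col1a2, Col4a1 and Sparc. Stretches of them are shown. In that order these genes encode a fibrillar chain, a basement membrane chain and a collagen-binding glycoprotein. Capitals mark the matches of 4 short motifs, searched on both strands, so that a match may read as the reverse complement. The motifs were CCAAT, known as a box bound by the NF-Y factor, the TATA box letters TATAAA, the GC box letters GGGCGG, and the purine-rich letters GGAGG. In the printed stretches matches of different motifs overlapped 0 times, and GGAGG overlapped itself 1 time, in Sparc.
Col1a2, chr4:33518307-33518416, plus strand: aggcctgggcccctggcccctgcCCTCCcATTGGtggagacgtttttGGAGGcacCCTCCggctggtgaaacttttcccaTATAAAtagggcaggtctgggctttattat
Sparc, chr10:40038877-40039066, minus strand: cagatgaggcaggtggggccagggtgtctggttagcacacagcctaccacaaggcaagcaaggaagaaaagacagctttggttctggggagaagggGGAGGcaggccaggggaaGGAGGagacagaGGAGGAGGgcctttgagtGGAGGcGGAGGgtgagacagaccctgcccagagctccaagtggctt
Col4a1, chr16:84885521-84885596, plus strand: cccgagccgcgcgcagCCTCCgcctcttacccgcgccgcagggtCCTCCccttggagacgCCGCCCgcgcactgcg

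The Col4a1 stretch is the whole of the 76 bases between the RefSeq starts of Col4a1 and Col4a2, which are transcribed away from each other. The Col1a2 stretch, with its TATAAA match, runs from 250 to 141 bases before the RefSeq start. The Sparc stretch runs from 250 to 61 bases before its own start. In the full windows, Col1a2 had 1 CCAAT, 1 TATAAA, 0 GGGCGG and 6 GGAGG matches. Col4a1 had 2 CCAAT matches, both outside the printed stretch, 0 TATAAA, 2 GGGCGG and 4 GGAGG matches. Sparc had 8 matches of GGAGG and 0 of the others. Of all 33469 windows of this length, 37.5% held CCAAT, 14.2% TATAAA, 33.1% GGGCGG and 71.1% GGAGG. A match is a description of the letters and not a site of binding.

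The first comparison asked how the level of these transcripts differed between the tissues. All 7 were higher in adipose tissue, in 10 of 10 animals for each gene. The differences were largest for Sparc and Col4a1, at 24.9-fold and 16.0-fold, and smallest for Dcn and Col1a2, at 3.48-fold and 3.69-fold. Together the 7 genes took 1.39% ± 0.384 of all counts of an adipose library and 0.05% ± 0.0276 of those of a muscle library (mean ± SD over 10 libraries each). In bulk tissue, fewer cells of a type and less RNA per cell cannot be told apart. In the fit across all genes, with edgeR's quasi-likelihood test and a threshold of 0.05 on the p-value adjusted by Benjamini and Hochberg's method, 42.2% of tested genes were called higher in adipose tissue, and 7 of 7 members were. With library totals that background was 74.2%, and again 7 of 7 members were called. The median log2 fold change, muscle minus adipose, was -2.77 over the members and -0.09 over all tested genes, and -4.09 and -1.39 with library totals. Adipose libraries lay above each muscle library in 24.5% of tested genes and in 4 of 7 members, namely Col3a1, Col4a1, Sparc and Dcn. With library totals the figures were 50.3% of genes and 6 of 7 members, all but Col1a2.

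**Figure D1:**
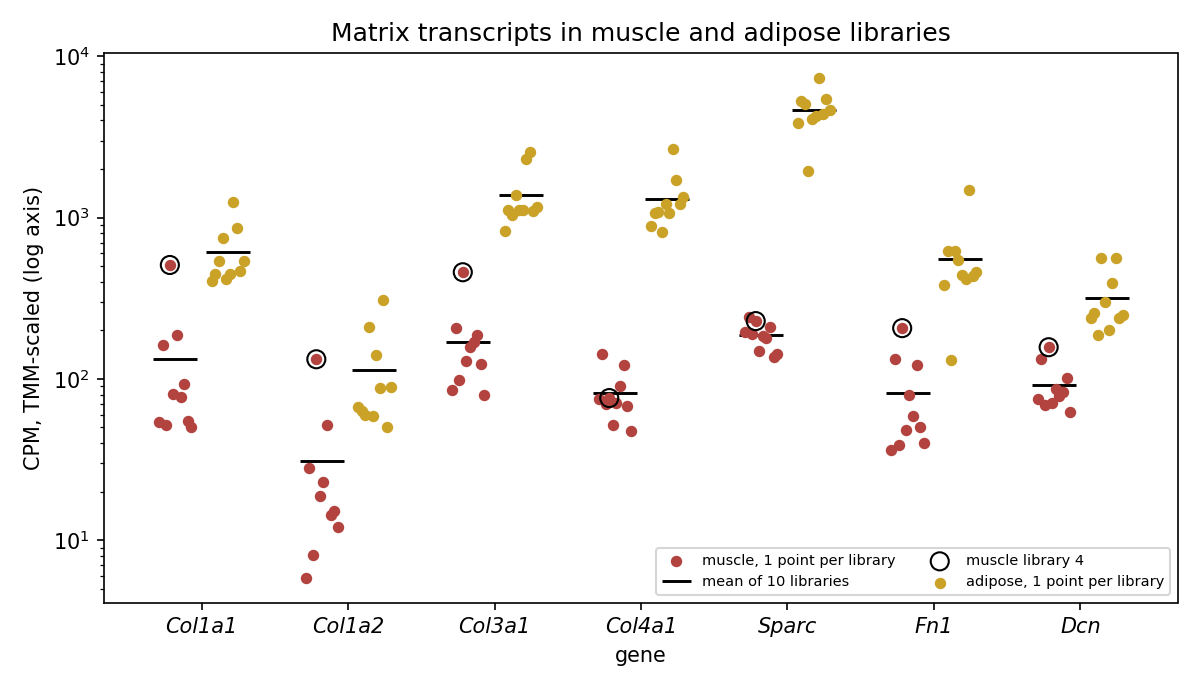
TMM-scaled CPM (log axis) of the 7 genes, 1 point per library, with the mean of 10 libraries as a bar and muscle library 4 ringed. The ringed library is the highest muscle library for Col1a1, at 508 CPM, but lies in the middle of the muscle range for Col4a1, at 76.0 CPM.

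Among the fibrillar collagens, Col1a1, the more abundant in counts of the type I chains, ranged in muscle from 49.97 CPM in library 10 through a median of 78.7 to 508 in library 4. In adipose tissue it ranged from 406 CPM in library 1 through a median of 499 to 1255 in library 7. The tissues overlapped only through muscle library 4, which exceeded the lowest adipose libraries. The difference was 4.63-fold (log2 fold change -2.21, SE 0.41, edgeR adjusted p = 3.98e-05), and 11.4-fold with library totals.

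Col1a2, the partner chain in type I collagen, ranged in muscle from 5.86 CPM in library 1 through a median of 17.1 to 132 in library 4. In adipose tissue it ran from 50.1 CPM in library 9 through a median of 77.6 to 308 in library 8. Muscle libraries 4 and 7, the latter at 51.4 CPM, reached into the adipose range. The extreme libraries were 22.6-fold apart in muscle, the widest spread of the 7 genes there, and 6.14-fold apart in adipose tissue, where Fn1 alone spread wider, 11.4-fold. On the log2 scale the tissues differed by -1.88 (SE 0.51, adjusted p of edgeR = 0.00192), a 3.69-fold difference that became 9.42-fold with library totals and 5.76-fold without muscle library 4.

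Col3a1, the chain of type III collagen that is found with type I in pliable tissue, ran from 79.8 CPM in muscle library 10 through a median of 144 to 458 in library 4. Its adipose values ran from 824 CPM in library 1 through a median of 1120 to 2566 in library 8. The tissues did not overlap, and the smallest ratio within an animal was 3.02, in animal 4. The difference was 8.08-fold (log2 fold change -3.01, SE 0.31, edgeR adjusted p = 8.12e-09), and 19.9-fold with library totals.

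Col4a1, the basement membrane chain, varied less in muscle, from 47.2 CPM in library 10 through a median of 72.9 to 143 in library 2. In adipose tissue it ran from 820 CPM in library 4 through a median of 1148 to 2644 in library 7. The groups were well apart: within an animal the adipose level was at least 7.45 times the muscle level, in animal 2, and at most 29.2 times, in animal 7. The difference was 16.0-fold (log2 -4.0, SE 0.25, edgeR adjusted p = 1.78e-12), or 38.7-fold with library totals. Only 3.85% of tested genes had a lower log2 fold change than Col4a1, whereas 16.2% had a lower one than Col1a1.

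Sparc, the collagen-binding glycoprotein, was the steadiest of the set in muscle, from 136 CPM in library 9 through a median of 187 to 243 in library 2. In adipose tissue its values ran from 1949 CPM in library 4 through a median of 4502 to 7336 in library 7. Its difference of -4.64 on the log2 scale (SE 0.22, with an adjusted p of 1.54e-14 by edgeR) was below that of all but 2.69% of tested genes. With library totals the difference was 59.7-fold.

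Fn1, fibronectin, ran from 36.4 CPM in muscle library 1 through a median of 54.8 to 206 in library 4, and from 130 CPM in adipose library 3 through a median of 449 to 1492 in library 8. Adipose library 3 lay within the muscle range, and the next adipose library, library 1, stood at 383 CPM. Muscle-restricted genes were at 1.59% of their muscle level in adipose library 3 and at 1.41% in library 1. Across adipose libraries, Fn1 and the level of those genes had r = -0.63 and rho = -0.43. This relation did not pass (permutation p = 0.0458 and 0.219, adjusted over 42 relations with library measures 0.275 and 0.418). Without libraries 1 and 3 the r was -0.17. The part of RNA from muscle in the Fn1 level was not tested beyond this. The difference was 6.81-fold (log2 fold change -2.77, SE 0.39, edgeR adjusted p = 1.09e-06), and 17.1-fold with library totals.

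Dcn, decorin, differed least on the log2 scale. It ran from 62.1 CPM in muscle library 10 through a median of 80.4 to 157 in library 4, and from 186 CPM in adipose library 3 through a median of 253 to 562 in library 8. The lowest adipose library was thus just above the highest muscle library. It was 3.48-fold higher in adipose tissue (log2 fold change -1.80, SE 0.23, edgeR adjusted p = 2.06e-07), or 8.80-fold with library totals.

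**Figure D2:**
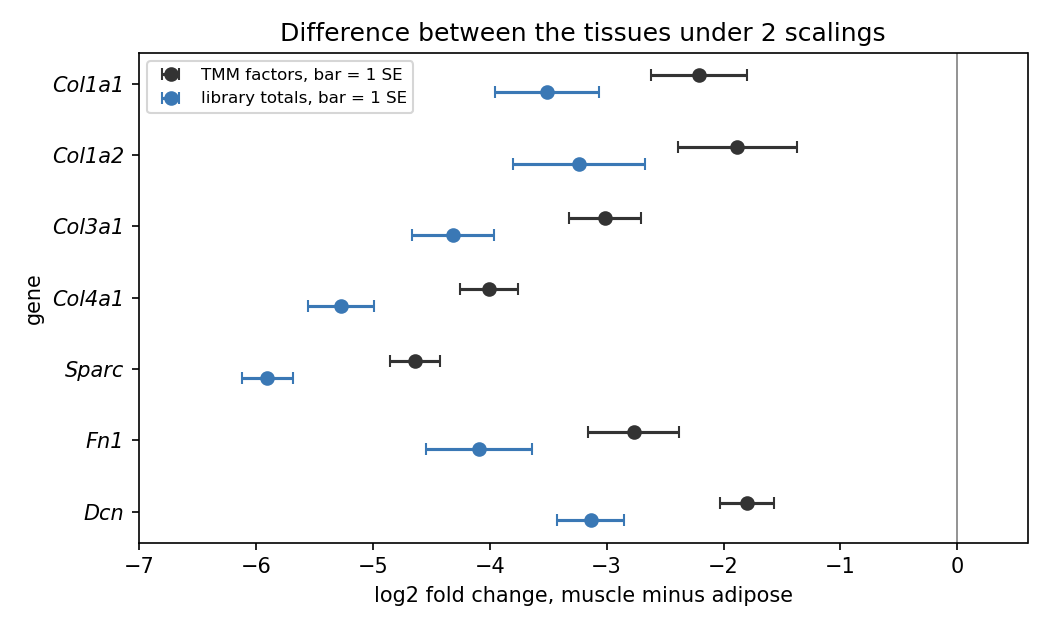
Log2 fold change (muscle minus adipose) of each gene with 1 SE, with TMM factors and with library totals, from the fit across all genes. All values lie below 0 under both scalings; Sparc, at -4.64 and -5.90, lies farthest from 0.

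The second comparison set fibrillar against basement membrane collagen. The ratio of the counts of 2 genes in a library does not depend on how libraries are scaled, so it shows whether they shift in different proportion between the tissues. Relative to Col4a1, each fibrillar chain took a larger part in muscle than in adipose tissue. The median ratio of Col1a1 to Col4a1 counts was 0.954 in muscle (range 0.725 to 6.69) and 0.438 in adipose tissue (range 0.344 to 0.909). The highest value of either tissue was that of animal 4. The log2 ratio averaged 0.32 ± 1.03 over muscle libraries and -1.11 ± 0.38 over adipose libraries (SD). The difference of 1.43 had the same direction in each of the 10 animals. A two-sided exact permutation test that flips the sign of each animal's difference gave p = 0.00195, the smallest possible with 10 animals, and 0.00488 after adjustment over 5 ratios.

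The ratio of Col3a1 to Col4a1 had medians of 1.76 in muscle (range 1.14 to 6.03) and 0.939 in adipose tissue (range 0.859 to 1.69). It was higher in muscle in 10 of 10 animals, by 0.88 ± 0.55 on the log2 scale (SD over animals, exact permutation p = 0.00195, adjusted 0.00488). For Col1a2 to Col4a1 the medians were 0.240 and 0.0627. Muscle was higher in 9 of 10 animals, by 1.77 ± 1.4 (exact permutation p = 0.00586, adjusted 0.00977). Without animal 4 these 3 differences were 1.27, 0.78 and 1.66 for Col1a1, Col3a1 and Col1a2 over Col4a1, with adjusted exact permutation p of 0.00977, 0.00977 and 0.0195. Without animals 1, 3 and 5 the Col1a2 difference was 1.95 with an adjusted p of 0.0521 by the same exact test, and was not past the threshold.

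Within the fibrillar group, the balance of type III to type I also differed. The ratio of Col3a1 to Col1a1 had a median of 1.6 in muscle (range 0.843 to 2.26) and 2.26 in adipose tissue (range 1.83 to 2.96), and was lower in muscle in 9 of 10 animals. The mean difference was -0.55 ± 0.55 on the log2 scale (SD over animals, exact permutation p = 0.00977, adjusted 0.0122). Without animals 1, 3 and 5 it was -0.63 with an adjusted exact permutation p of 0.0586.

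The chains of type I collagen were not held in a fixed ratio of counts. Col1a1 to Col1a2 ran from 1.5 in muscle library 7 to 9.28 in muscle library 1, and from 2.82 in adipose library 8 to 14.2 in adipose library 7. The extreme muscle values rested on 412 and 275 counts in library 7 and on 640 and 69 counts in library 1. The tissues themselves did not differ beyond this spread: the mean log2 difference was -0.33 ± 1.34, with 4 of 10 animals higher in muscle (exact permutation p = 0.486, adjusted 0.486).

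**Figure D3:**
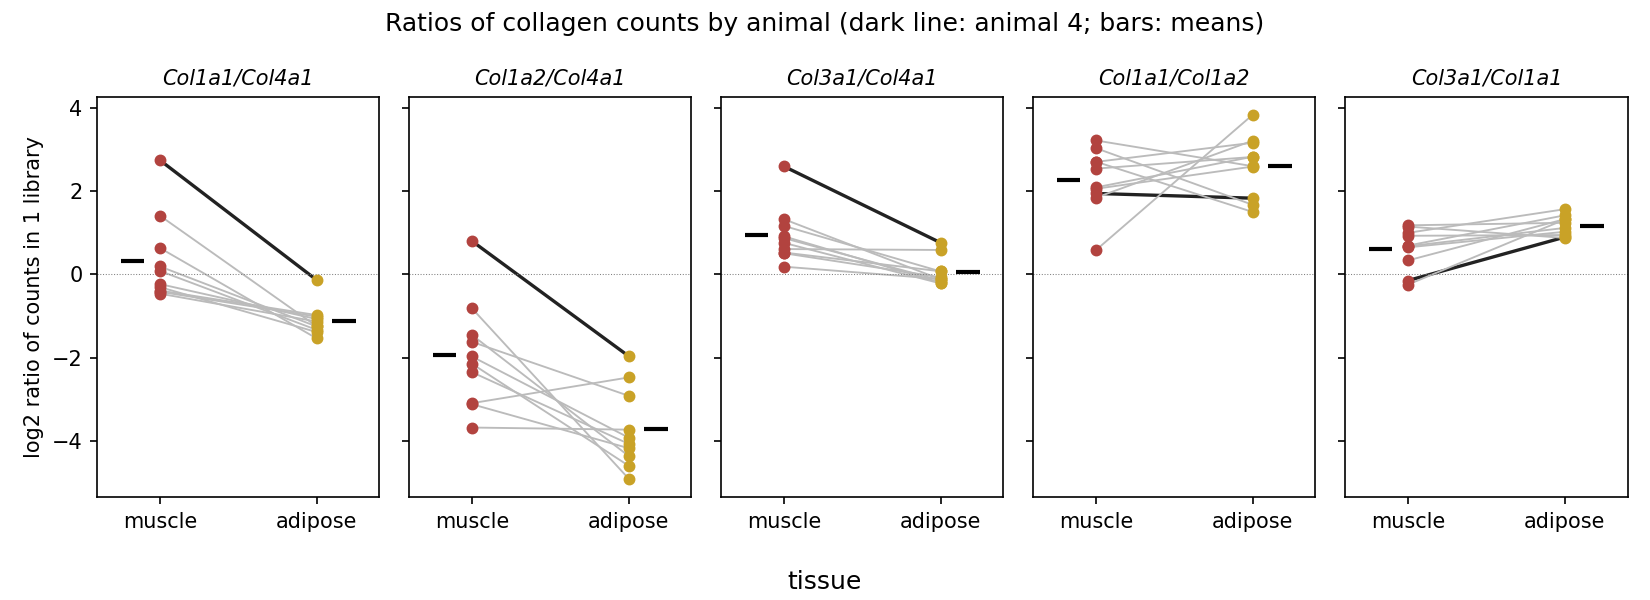
Log2 ratio of the counts of 2 collagen genes in each library, muscle on the left and adipose on the right of each panel, with a line per animal, animal 4 dark, and means as short bars. The lines of Col1a1/Col4a1 and Col3a1/Col4a1 fall from muscle to adipose in 10 of 10 animals, while those of Col1a1/Col1a2 cross.

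The third question was how the transcripts varied together within a tissue. Their spread between animals was above that of most genes in both tissues, though only just for Sparc in muscle. The SD of the log2 level in muscle was 1.08 for Col1a1, 1.30 for Col1a2, 0.74 for Col3a1 and 0.87 for Fn1, above that of 97.3%, 98.4%, 93.2% and 95.6% of the 9320 genes whose muscle mean reached 5 CPM. It was 0.49 for Col4a1, 0.43 for Dcn and 0.28 for Sparc, above 83.5%, 78.1% and 51.6% of those genes. In adipose tissue Col1a2 and Fn1 had the largest SDs of the set, 0.87 and 0.86, and the other 5 lay between 0.49 and 0.57. The SDs of Col1a2 and Fn1 were above those of 95.2% and 94.9% of the 10128 genes whose adipose mean reached 5 CPM. The other 5 were above 75.1% to 83.1% of those genes.

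In muscle the closest relations by Pearson's r were those of Col3a1 with Fn1, Col1a1 and Col1a2. All 21 pairs of members had a positive Pearson r of log2 CPM over the 10 libraries, with a median of 0.71, and 10 pairs passed a permutation test adjusted over the 42 pairs of both tissues (100000 resamples). The share of all gene pairs that were positive or passed is not given here, so these counts have no background beside them. Col1a1 and Col3a1 had r = 0.92 and rho = 0.89 (permutation p = 0.00039 and 0.0011, adjusted 0.00819 and 0.0224), and r = 0.87 without libraries 4 and 6, the farthest from the median of Col1a1. The closest pair was Col3a1 and Fn1, with r = 0.94 and rho = 0.94 (permutation p = 2e-05 and 0.00022, adjusted 0.00084 and 0.00924), and r = 0.92 without libraries 4 and 10. Col1a2 and Col3a1 had r = 0.89 and rho = 0.82 (permutation p = 0.00076 and 0.00566, adjusted 0.00952 and 0.0383), and r = 0.79 without libraries 4 and 7. For Col1a1, Col3a1 and Fn1 alike, libraries 4 and 2 were among the 3 highest, and libraries 1, 3 and 10 were the 3 lowest.

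The type I chains had r = 0.82 and rho = 0.77 in muscle (permutation p = 0.00584 and 0.0122, adjusted 0.0288 and 0.0465). Without libraries 4 and 6 their r was 0.59 and did not pass (exact permutation p = 0.124). Col1a1 and Dcn had r = 0.81 and rho = 0.81 (permutation p = 0.00618 and 0.00729, adjusted 0.0288 and 0.0383), and r = 0.73 without the same libraries (exact permutation p = 0.0436), but 0.61 without library 4 alone (exact permutation, adjusted p = 0.14). Dcn passed with Col3a1 at r = 0.85 and rho = 0.79 (permutation p = 0.00136 and 0.00868, adjusted 0.00952 and 0.0405), and had r = 0.59 without libraries 4 and 10 (exact permutation p = 0.119). With Fn1 it passed at r = 0.84 and rho = 0.83 (permutation p = 0.00365 and 0.00466, adjusted 0.0219 and 0.0383), and had r = 0.47 without libraries 2 and 4 (exact permutation p = 0.245). With Col1a2 it did not pass, at r = 0.71 and rho = 0.68 (permutation p = 0.0236 and 0.0345, adjusted 0.0521 and 0.0905). Without library 4 alone, Dcn had r = 0.69 with Col3a1 and 0.71 with Fn1 (exact permutation, adjusted p = 0.0843 and 0.08). The relations of Dcn were thus lower without these libraries. Leaving out the libraries farthest from the median also narrows the range and leaves fewer libraries. A pair that does not pass there is therefore not shown to be unrelated. Among 9319 other genes, 1.28% had an r of at least 0.7 with Col1a1 in muscle, and 4 of the 6 other members did. With Col1a2 this held for 2.45% of genes and 4 of 6 members, with Col3a1 for 2.01% and 4 of 6, with Fn1 for 3.73% and 5 of 6, and with Dcn for 2.11% and 4 of 6. In order of r with Col1a1, Col3a1 had a rank of 4, Fn1 had a rank of 10, Col1a2 of 29 and Dcn of 30. The gene most like Col1a1 in muscle was ENSRNOG00000030729 with r = 0.94, and in adipose tissue ENSRNOG00000060340 with r = 0.98, over 10 libraries each.

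By Pearson's r, Col4a1 passed the adjusted test in muscle with Sparc and with no fibrillar collagen, while by rank it also passed with Col3a1. Its r with Col1a1 was 0.32 and its rho 0.56 (permutation p = 0.36 and 0.0955, adjusted 0.445 and 0.182). With Col3a1 it had r = 0.47 and rho = 0.76 (permutation p = 0.168 and 0.0153, adjusted 0.233 and 0.0465), and r = 0.67 without libraries 4 and 10. Library 4, with the highest Col1a1 and Col3a1 and an ordinary Col4a1, moved these values: without libraries 4 and 6 the r with Col1a1 was 0.77 (exact permutation p = 0.0215). Without library 4 alone, the r of Col4a1 was 0.53 with Col1a1, 0.76 with Col3a1 and 0.82 with Fn1, at adjusted exact permutation p of 0.209, 0.0616 and 0.0616. Col4a1 and Sparc had r = 0.77 and rho = 0.81 (permutation p = 0.00841 and 0.00696, adjusted 0.0344 and 0.0383), and r = 0.64 without libraries 2 and 8, which did not pass (exact permutation p = 0.098). In muscle 14.0% of other genes reached an r of 0.7 with Col4a1, and 1 of 6 members, Sparc, did, at a rank of 847. With Sparc itself 4.28% of genes and 2 of 6 members, Col4a1 and Fn1, reached it.

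Across muscle libraries, the level of the adipose-restricted genes, on library totals, was set against the TMM-scaled level of each member. The share of all tested genes with as close a relation is not given here. Sparc was the 1 member whose relation to the level of the adipose-restricted genes passed the adjusted test. It had r = 0.85 and rho = 0.90 with the level of those genes (permutation p = 0.00108 and 0.00073, adjusted over 42 relations with library measures 0.0454 and 0.0307), and r = 0.83 without libraries 2 and 8. Col4a1 had r = 0.80 and rho = 0.68 (permutation p = 0.00537 and 0.0351, adjusted 0.113 and 0.369), which did not pass, and r = 0.34 without those libraries. With library totals, adipose RNA at the level of those genes would hold 14.9% to 21.0% of the muscle level of Sparc and 9.31% to 16.1% of that of Col4a1. For Col1a1 it would hold 0.909% in muscle library 4 and at most 10.0% in any muscle library. The largest shares were 14.4% for Col1a2, 12.5% for Fn1, 11.9% for Col3a1 and 4.05% for Dcn. Because those genes were chosen for a low muscle level, these shares are held low in advance and do not size the adipose RNA. The part of adipose RNA in the co-variation of Sparc and Col4a1 was not tested.

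The count of related pairs in muscle depended on single libraries. Without library 4, 1 of 21 pairs passed the adjusted test, Col3a1 with Fn1 at r = 0.90 (exact permutation, adjusted p = 0.0214), and without library 2, 4 pairs did. Leaving out any of the other muscle libraries gave 7 to 11 pairs. The r of Col1a1 and Col3a1 without library 4 was 0.79 (exact permutation, adjusted p = 0.0616).

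**Figure D4:**
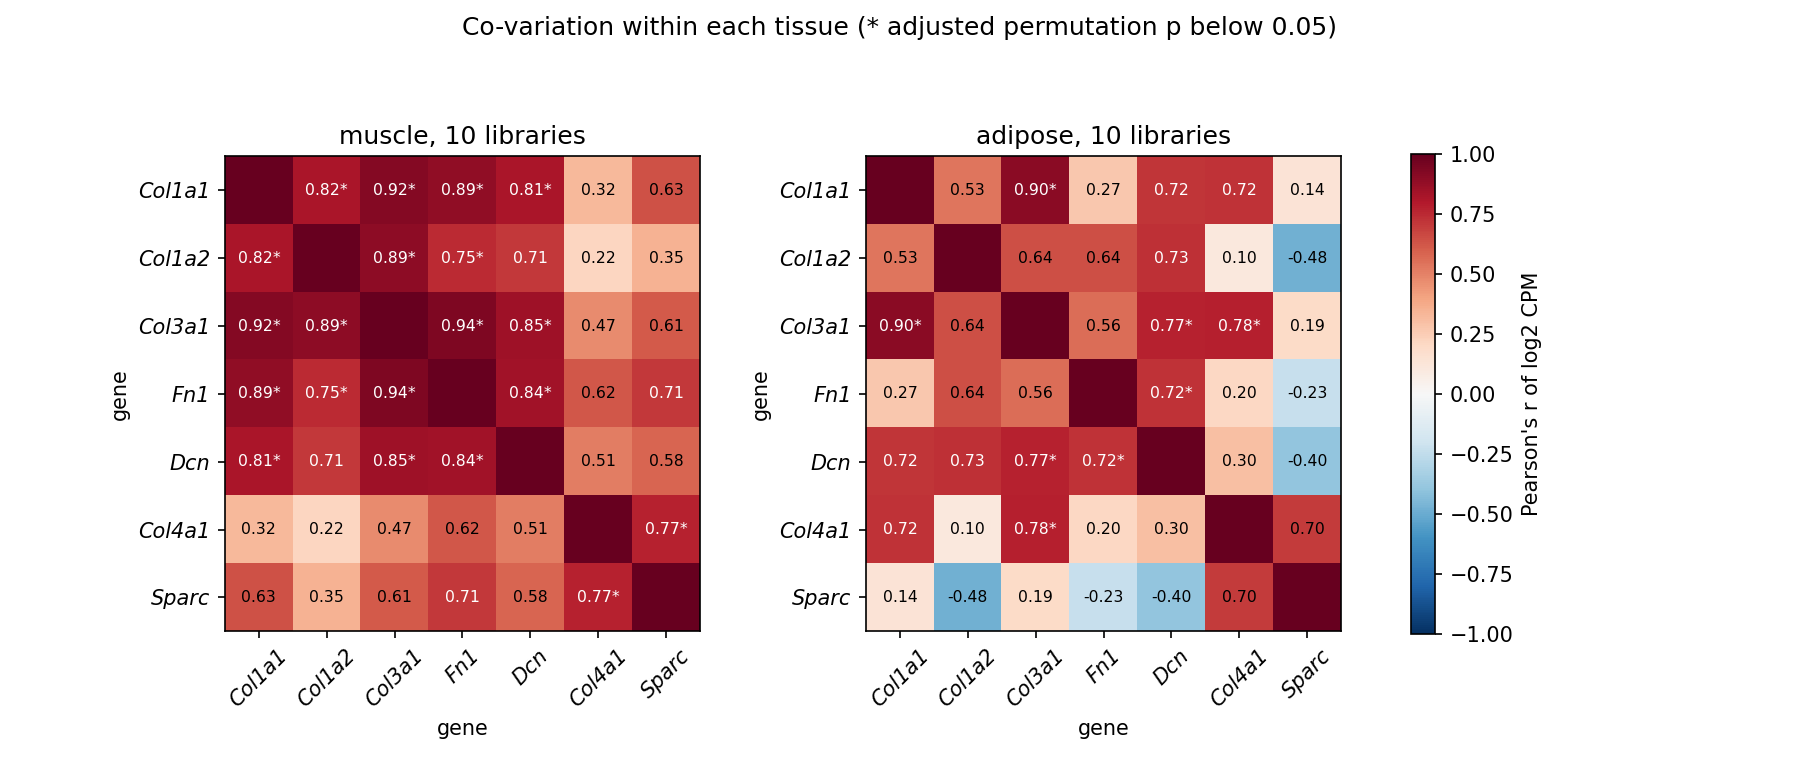
Pearson's r of log2 CPM for each pair of genes over the 10 libraries of each tissue, with an asterisk where the adjusted permutation p is below 0.05. In muscle the values among the fibrillar collagens, Fn1 and Dcn run from 0.71 to 0.94, while in adipose tissue Sparc has values from -0.48 to 0.19 with all genes except Col4a1, with which it has 0.70.

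In adipose tissue the median r over 21 pairs was 0.56, from -0.48 to 0.90, 18 pairs were positive, and 4 passed the adjusted test. These counts too have no share over all gene pairs beside them. With library totals 11 pairs passed in adipose tissue and 11 in muscle. Whether the tissues differ in any of these correlations was not tested. Col1a1 and Col3a1 again varied together, with r = 0.90 and rho = 0.73 (permutation p = 0.00102 and 0.0199, adjusted 0.00952 and 0.0559). Libraries 7 and 8 were the highest for both, and without them r was 0.73 (exact permutation p = 0.0756), so the call was not kept without them.

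Col4a1 in adipose tissue had r = 0.72 and rho = 0.53 with Col1a1 (permutation p = 0.0208 and 0.123, adjusted 0.0515 and 0.215), and r = -0.36 without libraries 7 and 8. With Col3a1 it had r = 0.78 and rho = 0.45 (permutation p = 0.0135 and 0.191, adjusted 0.0436 and 0.261), and r = 0.02 without them. Neither relation held without those 2 libraries, which were at 2644 and 1711 CPM of Col4a1. Without library 4, which had the lowest Col4a1, both were closer instead: r was 0.95 with Col1a1 and 0.89 with Col3a1 (exact permutation, adjusted p = 0.00976 and 0.0184). With Sparc, Col4a1 had r = 0.70 and rho = 0.62 (permutation p = 0.0465 and 0.0612, adjusted 0.0849 and 0.129), which did not pass the adjusted test, and r = 0.72 without libraries 7 and 8.

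Fn1 and Dcn formed the other related pair, with r = 0.72 and rho = 0.76 (permutation p = 0.009 and 0.0155, adjusted 0.0344 and 0.0465), and r = 0.47 without libraries 3 and 8 (exact permutation p = 0.245), the lowest and the highest for Fn1. Dcn also followed Col3a1, with r = 0.77 and rho = 0.77 (permutation p = 0.0154 and 0.0127, adjusted 0.0463 and 0.0465), and r = 0.65 without libraries 7 and 8 (exact permutation p = 0.137). Neither relation passed without the libraries left out, where fewer libraries remained over a narrower range. Of the other adipose genes 12.9% reached an r of 0.7 with Col1a1, and 3 of 6 members did. The shares were 6.0% and 1 of 6 members with Col1a2, 13.3% and 3 of 6 with Col3a1, 5.24% and 2 of 6 with Col4a1, 6.60% and 0 of 6 with Sparc, 5.16% and 1 of 6 with Fn1, and 17.4% and 4 of 6 with Dcn. The relation of the type I chains did not pass with the factors used here: Col1a1 and Col1a2 had r = 0.53 and rho = 0.49 (permutation p = 0.0986 and 0.154, adjusted 0.153 and 0.239), and 22.9% of genes had a higher r with Col1a1 than Col1a2 did. It passed with library totals, at r = 0.68 (permutation, adjusted p = 0.0487), and without library 7, at r = 0.84 (exact permutation, adjusted p = 0.0302).

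The scaling mattered for co-variation in adipose tissue. With TMM factors computed within the tissue 7 of 21 adipose pairs passed the adjusted test, beside 11 with library totals and 4 with the factors used above. Without adipose libraries 1, 3 and 5 a single pair passed, 1 of 21, and without libraries 7 and 8 there were 0, with 3 pairs at an unadjusted permutation p below 0.05. Leaving out any 1 adipose library gave 1 to 5 pairs. It was 1 without library 1, 3, 8 or 9 and 2 without library 2, 5 or 10.

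**Figure D5:**
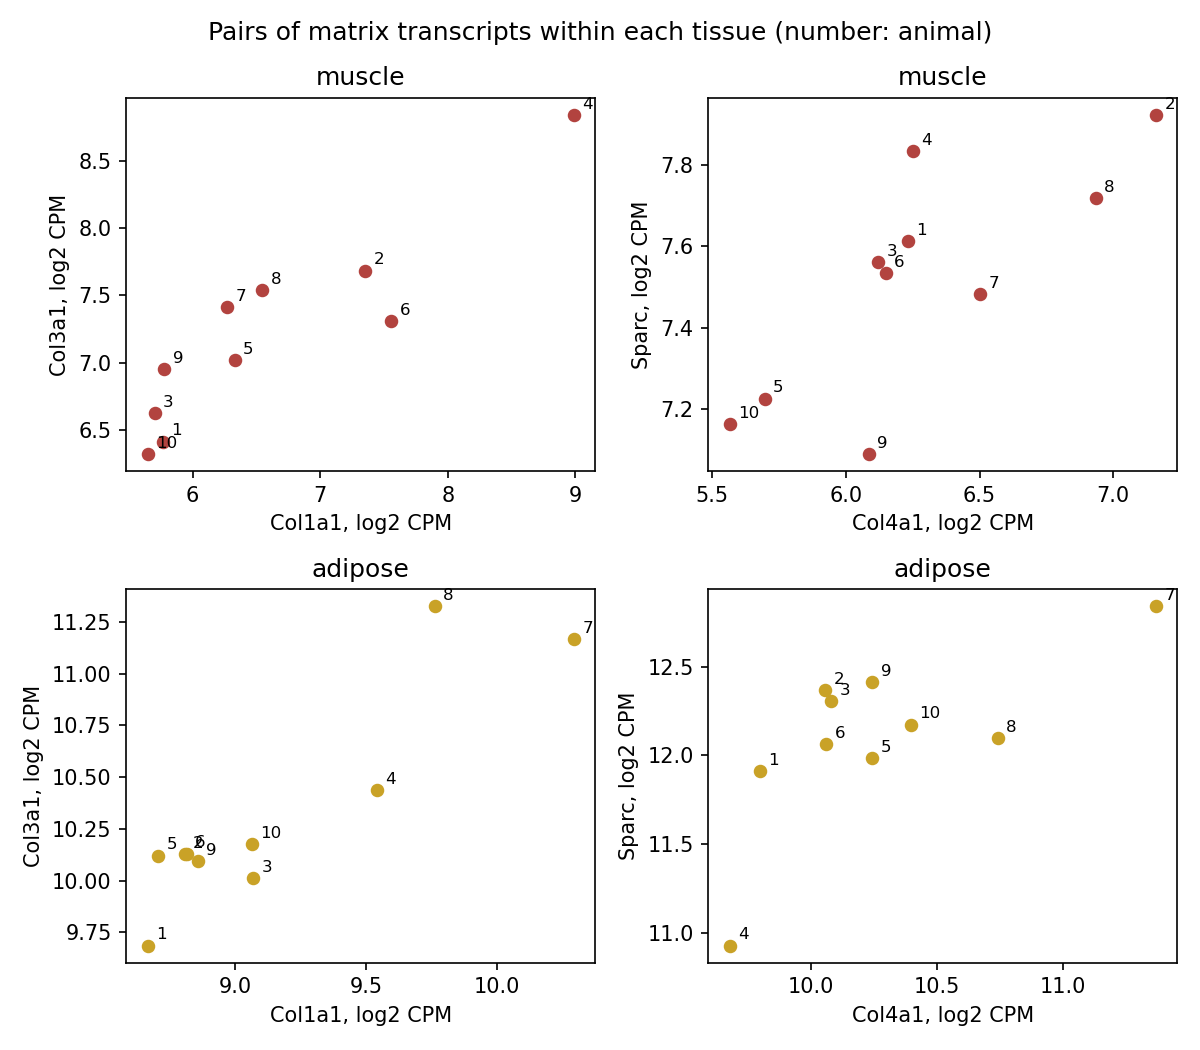
Log2 CPM of Col1a1 against Col3a1 (left) and of Col4a1 against Sparc (right) in muscle (top) and adipose tissue (bottom), each point 1 library with its animal number. Muscle library 4 is far to the right for Col1a1 and not for Col4a1, and adipose libraries 7 and 8 carry the upper end of Col1a1 and Col3a1.

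Across animals, the level of a transcript in muscle was set against its level in adipose tissue. None of the 7 genes passed the test adjusted over the 7. Fn1 came nearest, with r = 0.62 and rho = 0.76 over 10 animals (permutation p = 0.0495 and 0.0151, adjusted 0.346 and 0.105), and r = 0.74 without animals 2 and 4. Col3a1 had r = 0.43, Col1a2 0.41, Dcn 0.39, Col4a1 0.18 and Col1a1 0.17, and Sparc had -0.34, with permutation p of 0.211 to 0.641 and adjusted p of 0.451 to 0.641. Their rho ran from -0.33 for Sparc to 0.59 for Col3a1, with permutation p of 0.0797 to 0.863 and adjusted p of 0.279 to 0.863. Without the 2 animals farthest from the median in muscle, their r ran from -0.28 for Sparc to 0.65 for Col3a1. Animal 4, with the highest fibrillar collagen levels in muscle, also had the highest ratios of fibrillar to basement membrane collagen in adipose tissue, while its adipose Col1a1 of 745 CPM was below the 1255 and 868 CPM of animals 7 and 8.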

How the data were processed

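The submitters' processing notes name STAR, featureCounts, bcl2fastq and rn6. For versions, annotation, strand and multi-mapped reads, settings were not given in the sources used here. Per the labels, libraries were made from 300 ng of RNA extracted from muscle (10 mg) or fat (30 mg). The authors deposited expected counts per gene and library, not normalized: 25.3% of values above 0 were whole within 0.005, and 1.43% of the values of the 7 members, so most counts are fractional; how they became so was not given. Counts were rounded for count tests; ratios used them as deposited. The pairing of the 7 identifiers with symbols came with the definition of the set and was not checked against an annotation. No identifier of the reference gene table matched, so the lists of matrix genes and cell markers were not run. The members and lists were chosen with earlier results of these data known.

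In R 4.3.3, edgeR 4.0.16 fitted all libraries without the animal as a block (filterByExpr, TMM, robust quasi-likelihood test, Benjamini-Hochberg over all tested genes). Log2 CPM used a prior count of 2. Correlations were tested by permutation (100000 resamples, or all orders below 10 libraries) and ratios by exact sign flips over animals, in Python 3.11.15 with numpy 2.4.6. The rule for named genes took the 7 members and the genes most like Col1a1 and most like Col4a1 in each tissue. Of the latter genes 2 identifiers are printed, both for Col1a1. Same-numbered libraries come from the same animals per the design text; over 8303 genes their deviations from the tissue means correlated at -0.22 to 0.42 (median 0.12, against -0.03 between animals). No libraries agreed within sampling noise (lowest chi-square per degree of freedom 11.9). Alternatives were other factors, filters and libraries, DESeq2 1.42.0, limma-voom (limma 3.58.1) and the replicate block; those without muscle library 4 in the fit, and without adipose libraries 7 and 8, were chosen after seeing the data. On simulated data with known changes the count model was tested first.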

Additional observations from a re-analysis of the deposited data

Results flagged for a closer look

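For each member and each of the 5 ratios in each tissue (24 groups of 10 libraries), the gap between the highest or lowest library and its neighbour was divided by the range of the group. In 4 cases the quotient was above the 95% limit of Dixon's test, which about 1 group in 20 passes by chance. Animal 4 accounted for 3 of them. In muscle its log2 ratio of Col3a1 to Col4a1 was 2.59, next to 1.32. In adipose tissue its log2 ratio of Col1a1 to Col4a1 was -0.14, next to -0.98. In adipose tissue its Sparc level was the lowest, 10.93 on the log2 CPM scale, next to 11.91. With library totals alone, without the factors, it was also the lowest, at 3856 CPM next to 6106 in library 3. Adipose library 4 also had the highest TMM factor, 1.98. Across adipose libraries Sparc and this factor had r = -0.73 and rho = -0.81 (permutation p = 0.0323 and 0.0072, adjusted 0.272 and 0.151), and r = -0.77 without libraries 3 and 4. Relations of similar size and opposite sign were those of Fn1, Dcn and Col1a2, at r = 0.71, 0.68 and 0.65 (permutation, adjusted p = 0.264, 0.264 and 0.275). Without libraries 3 and 4 they were 0.47, 0.28 and 0.64. Col3a1 had r = 0.22, Col1a1 0.15 and Col4a1 -0.22 with the factor. No member passed the adjusted test. The part of the factor in the size of the gap was not tested. The other case was muscle library 7, whose log2 ratio of Col1a1 to Col1a2 was 0.58, next to 1.84; it had the lowest total count, 8446753.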

How the results depend on the processing

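For the 7 members, the direction and the call held in each of 21 alternatives, with log2 fold changes of -5.90 to -1.49. With the animal as a replicate block they were -2.59 for Col1a1, -2.20 for Col1a2, -3.13 for Col3a1, -4.0 for Col4a1, -4.60 for Sparc, -2.80 for Fn1 and -1.75 for Dcn, and the block changed no call of a member. With library totals, 1692 genes were called for muscle and 10240 for adipose tissue as the higher side, beside 5187 and 5824 with TMM factors, and the median of all genes moved from -0.09 to -1.39. Leaving out single animals gave 5025 to 5344 and 5677 to 5905 genes. Among ratios, Col1a2/Col4a1 (1.95) and Col3a1/Col1a1 (-0.63) missed the threshold without animals 1, 3 and 5, where 7 animals remained. Of the related pairs, 1 to 11 passed in muscle and 1 to 5 in adipose tissue when 1 library was left out, 4 without muscle library 2, 1 without muscle library 4, 11 in adipose tissue with library totals, 7 with factors within the tissue, 1 without adipose libraries 1, 3 and 5 and 0 without 7 and 8; the cause was not tested. Without adipose libraries 7 and 8, 11 pairs were positive instead of 18: r was -0.36 for Col1a1 with Col4a1, -0.68 for Col1a1 with Sparc, -0.52 for Col1a2 with Col4a1, -0.47 for Col3a1 with Sparc, -0.50 for Col4a1 with Dcn, -0.08 for Col4a1 with Fn1 and -0.0010 for Col1a1 with Fn1. When 1 adipose library was left out, 15 to 19 pairs were positive; Col1a1 with Sparc ran from -0.43 (without library 7) to 0.67, and Sparc with Dcn was 0.18 without library 4. The sign also turned across tissues for Col1a1 without animals 1, 3 and 5 (r = -0.0078). With 10 libraries a tissue, the tests rest on the variation between the libraries of these animals. The main fit took the libraries as independent, without the pairing by animal.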
